A study of Mus musculus with 22 samples.

Results

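The Ikaros family genes Ikzf1 (Ikaros, ENSMUSG00000018654), Ikzf2 (Helios, ENSMUSG00000025997), Ikzf3 (Aiolos, ENSMUSG00000018168) and Ikzf4 (Eos, ENSMUSG00000002578) were followed through 11 lymphocyte populations sorted from mouse mammary tumours. They are 4 of the 37620 genes in the deposited count table. The 4 were taken as a family by name, and the family was picked because Helios and Eos had been seen to differ between innate-like and conventional lymphocytes in these same libraries. The members' levels across that division are therefore given as a description with no test. The members are tested only between populations placed here on the same side of it. Other genes are tested in both kinds of comparison.

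All populations came from pooled mammary tumours of female C57BL/6 mice carrying the PyMT transgene, at 20 to 24 weeks of age, and each was sequenced as 2 libraries. PyMT is a viral oncogene that causes mammary tumours in mice. The mice with tumours were the only source, so no population from a tumour-free gland or another organ was compared. Populations are written as labelled, by the surface markers used to sort them. In the first 10 columns of the table these are TCRb+CD8a+NK1.1+, TCRb+CD8a-NK1.1+ and TCR-NK1.1+ cells, which carry the natural killer receptor NK1.1, and TCRb+CD8a+PD1+ and TCRb+CD8a+PD1-NK1.1- T cells. The next 12 columns hold TCRab+ILTC1 and TCRgd+ILTC1 cells (type 1 innate-like T cells with an alpha-beta or gamma-delta receptor), ILC1l cells (cells resembling type 1 innate lymphoid cells), the conventional natural killer population cNK, and TCRgd+NK1.1- and TCRb+CD8a+NK1.1- T cells. The first 3 populations, both ILTC1 populations and ILC1l are called innate-like here, and the remaining T cells and cNK conventional. The label TCR-NK1.1+ does not exclude conventional natural killer cells, so its place on the innate-like side is a choice. Nothing in the labels says that the 2 libraries of a population came from separate animals, so p-values measure only the spread between these libraries, which may be technical.

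Ikaros family proteins are zinc finger transcription factors of lymphocytes. A group of fingers near the amino terminus binds DNA, and a pair of fingers at the carboxyl end joins family members to each other, so that the proteins present in a cell can form mixed pairs. Ikaros is needed for lymphocyte development, Aiolos acts in B cells and in maturing lymphocytes, Helios is known from regulatory T cells and from innate-like and strongly stimulated T cells, and Eos works with Foxp3 in regulatory T cells. The family recruits the NuRD chromatin remodelling complex and other corepressors. In human cells, Ikaros and Aiolos are degraded through the ubiquitin ligase receptor cereblon when the cells meet thalidomide-type drugs.

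The coding sequence of the second zinc finger is shown for the 4 members because it is the stretch in which the encoded residues were the same in all of them, and so shows how the reads of these related genes can still be told apart. The sequences were read from GENCODE M21 (GRCm38) transcripts, 5′ to 3′ on the coding strand, and capitals mark the codons of the 2 cysteines and 2 histidines that hold the zinc.
Ikzf1: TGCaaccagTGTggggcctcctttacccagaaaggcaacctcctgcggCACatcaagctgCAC
Ikzf2: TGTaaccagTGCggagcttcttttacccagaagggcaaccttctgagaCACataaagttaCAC
Ikzf3: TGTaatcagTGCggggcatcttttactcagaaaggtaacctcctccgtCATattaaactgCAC
Ikzf4: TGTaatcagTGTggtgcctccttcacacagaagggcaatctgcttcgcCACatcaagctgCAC
Each of these fingers is 63 bases long and lies in coding exon sequence. Any pair of members differed at 0 of 21 residues here, but at 10 to 15 of the 63 bases. In the first finger, Helios and Eos also differed at 0 of 21 residues, with 9 bases changed, whereas Aiolos differed from Ikaros at 5 residues. The longest exact run shared by the transcripts of any 2 members was 32 bases, between Helios and Eos, and the shortest of these longest runs was 17 bases, between Ikaros and Helios. On the opposite strand, annotated exons shared 144 bases with Helios (predicted gene Gm29114) and 37 bases with Eos (Gm26876), and none with Ikaros or Aiolos. The sources used here do not say whether counting used strand, so reads in those short stretches could come from either gene.

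Library totals ran from 8696335 to 20602715 counts, and all 4 members passed the filter on low counts in the fits of both column sets. Markers of other cells were not evenly spread. Summed levels of 20 myeloid genes were 16506 and 42202 CPM (counts scaled to an equal library size) in TCRgd+NK1.1- libraries and 79.8 to 3754 CPM elsewhere. A sum of 16 epithelial genes was highest in TCR-NK1.1+ replicate 1 (6713 CPM), TCRb+CD8a-NK1.1+ replicate 1 (4675 CPM) and TCR-NK1.1+ replicate 2 (4174 CPM). Where that sum was low the largest share of it in every T cell, ILTC1 and ILC1l library came from Cdh1. The labels held for the defining genes of most populations, with departures that touch these results. Cd3e, a subunit of the T cell receptor complex, was near 0 in cNK (0.618 and 6.08 CPM) but reached 216 and 437 CPM in TCR-NK1.1+ and 85.8 and 458 CPM in ILC1l. Cd3g, another subunit, was 10.2 and 15.1 CPM in cNK, 998 and 1058 in TCR-NK1.1+ and 379 and 1268 in ILC1l. In the T cells TCRgd+NK1.1- and TCRb+CD8a+NK1.1- it was 1566 and 770 and 1345 and 1001 CPM. Klrb1c, which encodes NK1.1, stood at 5.74 CPM in replicate 1 and 82.1 CPM in replicate 2 of TCRb+CD8a+NK1.1-, against 924 to 2466 CPM in the populations sorted as NK1.1+, ILTC1, ILC1l or cNK. In bulk libraries of sorted cells, fewer cells expressing a gene and less RNA per cell cannot be told apart.

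Every member was present in every population, apart from the near absence of Eos in cNK, and the members differed in how far their levels moved between populations. From the lowest to the highest population mean, Aiolos spanned 2.99-fold, Ikaros 4.04-fold, Helios 17.1-fold and Eos 386-fold. The last of these rests on 3 counts in cNK, and without cNK Eos spanned 5.21-fold, Helios 8.20-fold, Aiolos 2.99-fold and Ikaros 2.34-fold. Levels of different genes were set side by side per kilobase, using all annotated exons of each gene. The median over 22 libraries was then 99.9 CPM for Aiolos, 52.5 for Ikaros, 13.0 for Helios and 4.12 for Eos. Which of these exons the transcripts in these cells held is not known, so comparisons between members are approximate. With 2 libraries per population, the libraries of neighbours in the order of means overlapped in 7 of 10 steps for Ikaros and for Helios, 9 of 10 for Aiolos and 8 of 10 for Eos.

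**Figure D1:**
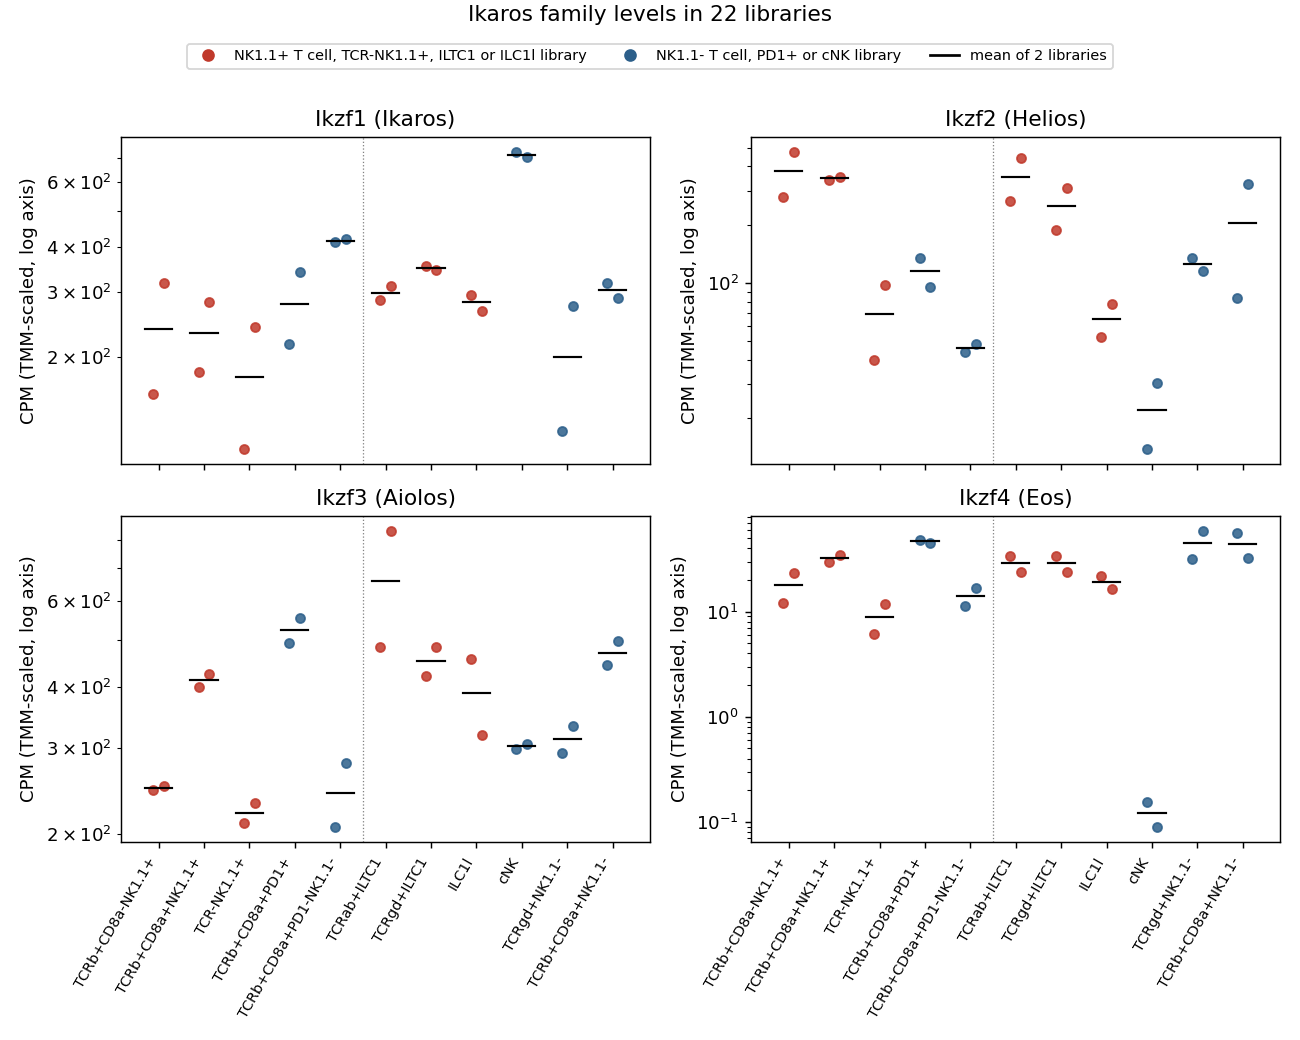
TMM-scaled CPM of Ikzf1, Ikzf2, Ikzf3 and Ikzf4 on log axes, with a point for each of the 2 libraries of a population and a line at their mean. The dotted line parts the first 10 from the next 12 columns of the table. Helios ran from 13.9 CPM in a cNK library to 476 CPM in a TCRb+CD8a-NK1.1+ library, and Eos fell to 0.155 and 0.0882 CPM in cNK.

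Helios was highest in T cells carrying NK1.1 and in ILTC1 cells. The libraries held 279 and 476 CPM in TCRb+CD8a-NK1.1+, 265 and 441 in TCRab+ILTC1, 342 and 354 in TCRb+CD8a+NK1.1+, and 188 and 309 in TCRgd+ILTC1. Means were 377 ± 139, 353 ± 125, 348 ± 8.58 and 249 ± 85.6 CPM (SD, n = 2). These populations could not be ordered by their libraries, except that both TCRb+CD8a+NK1.1+ libraries lay above both of TCRgd+ILTC1. In TCRb+CD8a-NK1.1+ the library with less Helios held more of the epithelial gene Krt18 (606 against 84.0 CPM). Next came TCRb+CD8a+NK1.1-, with 83.4 CPM in replicate 1 and 323 CPM in replicate 2, a 3.87-fold gap and the widest between replicates for any member. The replicate with more Helios was also the one with more Klrb1c, and it held less Cd8b1 (861 against 1383 CPM) and more Krt18 (715 against 319 CPM). The part of other cells in these Helios levels was not tested.

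Lower Helios levels were found in the other NK1.1- T cells and in cells whose labels give no T cell receptor. TCRgd+NK1.1- held 134 and 115 CPM and TCRb+CD8a+PD1+ held 134 and 95.0 CPM. TCR-NK1.1+ held 39.8 and 97.7 CPM and ILC1l 52.2 and 77.6 CPM, and in both of these populations the library with more Helios was the one with more Cd3e. TCRb+CD8a+PD1-NK1.1- T cells followed with 43.8 and 48.3 CPM. Helios was lowest in cNK, with 13.9 and 30.2 CPM, below both libraries of every other population. NK1.1 and Helios thus did not rank the populations alike: TCR-NK1.1+, ILC1l and cNK all carried NK1.1 transcript and stood in the lower part of the Helios order.

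Eos was low throughout and had another order. Its highest levels were in NK1.1- T cells with much Pdcd1, the gene for PD1. TCRb+CD8a+PD1+ held 48.1 and 45.4 CPM of Eos, TCRgd+NK1.1- held 31.6 and 59.1, and TCRb+CD8a+NK1.1- held 56.4 and 32.6. In these 6 libraries Pdcd1 stood at 444 to 1973 CPM, and in the other 16 at 0.970 to 110 CPM. Among innate-like T cells, Eos was 29.6 and 34.8 CPM in TCRb+CD8a+NK1.1+, 34.2 and 23.9 in TCRgd+ILTC1, and 33.6 and 24.1 in TCRab+ILTC1. ILC1l (21.8 and 16.4 CPM), TCRb+CD8a-NK1.1+ (12.2 and 23.4), TCRb+CD8a+PD1-NK1.1- (11.2 and 16.7) and TCR-NK1.1+ (6.12 and 11.8) were lower, with overlapping neighbours in each step. In ILC1l, the library with less Cd3e had more Eos, the reverse of Helios.

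In cNK, Eos was close to undetected. The libraries held 2 and 1 counts, under the 3 counts that a count of 0 would allow, while the other 20 libraries held 81 to 913 counts. ILC1l, with 490 counts in its 2 libraries, exceeded cNK by a ratio of 155 in CPM, with an exact 95% interval of 52.7 to 754. This interval covers only the error of counting, because it pools the 2 libraries of each population and leaves out the spread between them. The sources used here do not say whether copies made by PCR were removed. The interval is no test of the difference, which is one of those the family was picked by. Both cNK libraries were rich in NK cell transcripts, with Ncr1, the gene for the activating receptor NKp46, at 2717 and 2531 CPM.

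Ikaros had the reverse extreme. It was highest in cNK, at 728 and 703 CPM (715 ± 17.4, SD, n = 2), and next in TCRb+CD8a+PD1-NK1.1- T cells, at 412 and 419 CPM. TCRgd+ILTC1 followed with 355 and 346 CPM, and these 3 populations each lay apart from the next. From there the order was not resolved: TCRb+CD8a+NK1.1-, TCRab+ILTC1, ILC1l, TCRb+CD8a+PD1+, TCRb+CD8a-NK1.1+, TCRb+CD8a+NK1.1+, TCRgd+NK1.1- and TCR-NK1.1+ had means of 305 down to 177 CPM, each overlapping the next. Replicates differed 2.20-fold in TCRgd+NK1.1- (125 and 275 CPM), 2.15-fold in TCR-NK1.1+ (112 and 241) and 2.01-fold in TCRb+CD8a-NK1.1+ (158 and 318).

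Aiolos had a narrower span than the other members when cNK was included, and a wider one than Ikaros without it. The median ratio between its replicates was 1.13, beside 1.11 for Ikaros. It was highest in TCRab+ILTC1, where the libraries held 483 and 837 CPM, and in TCRb+CD8a+PD1+, at 492 and 555 CPM. The lowest means were those of TCRb+CD8a-NK1.1+ (246 and 250 CPM), TCRb+CD8a+PD1-NK1.1- (206 and 279) and TCR-NK1.1+ (210 and 231). The remaining 6 populations had means between 302 and 470 CPM. Only cNK and TCRb+CD8a-NK1.1+ were apart among neighbours in the order. Ikzf5 (Pegasus), the family gene outside the 4, ran from 32.2 CPM in TCR-NK1.1+ to 82.5 CPM in cNK, and every neighbouring pair in its order overlapped.

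The make-up of the family within a library does not depend on library scaling. Per kilobase, Aiolos was the most abundant member in 19 of 22 libraries and Ikaros in the other 3, which were both cNK libraries and replicate 1 of TCRb+CD8a+PD1-NK1.1-. Eos was the least abundant in 21 libraries. The exception was replicate 1 of TCRb+CD8a+NK1.1-, where Helios made up 4.44% and Eos 4.92%. Helios reached 25.4 ± 3.38% in TCRb+CD8a-NK1.1+ and 18.7 ± 1.40% in TCRb+CD8a+NK1.1+, against 1.08 ± 0.569% in cNK (SD, n = 2). Ikaros made up 60.2 ± 1.21% in cNK and 20.1 ± 4.92% in TCRab+ILTC1. The order of members rests in part on the exon lengths. In counts not divided by length, Helios had the largest share in both TCRb+CD8a-NK1.1+ libraries (40.1% and 44.6%, Aiolos 35.4% and 23.4%). Ikaros then also led in TCR-NK1.1+ replicate 2 (41.4%, Aiolos 39.7%) and TCRb+CD8a+PD1-NK1.1- replicate 2 (54.9%, Aiolos 36.6%).

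**Figure D2:**
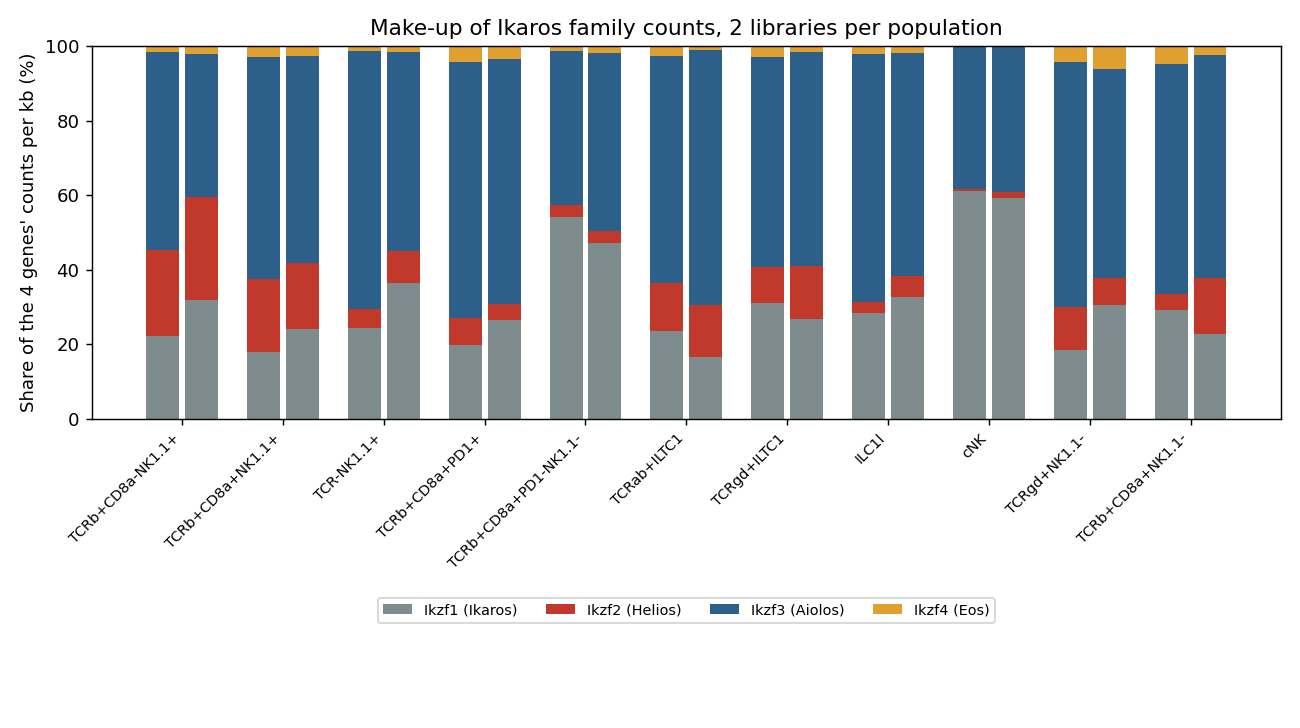
Share of each of the 4 genes in their summed counts per kilobase, in percent, with 1 bar per library (replicate 1 then 2). Helios takes at most 27.8% of a library, in TCRb+CD8a-NK1.1+, and Eos at most 6.24%, in TCRgd+NK1.1-, while Ikaros takes up to 61.0% in cNK.

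In the 6 comparisons between populations on the same side of the division, 24 tests of the members were made, and 1 passed an adjusted p of 0.05 with edgeR's quasi-likelihood test, adjusted over all genes by Benjamini-Hochberg. Without adjustment 9 had p under 0.05, and DESeq2 called 6. Over all genes, 3.39% to 15.4% had an unadjusted p under 0.05 in a comparison, and DESeq2 called 76 to 1145 genes. The edgeR call was Helios in CD8 T cells with NK1.1 against NK1.1+ cells sorted as lacking a T cell receptor. TCRb+CD8a+NK1.1+ libraries held 342 and 354 CPM and TCR-NK1.1+ libraries 39.8 and 97.7 CPM, so all libraries of the first lay above the second. Helios was 5.07-fold higher (log2 2.34 ± 0.43, SE, adjusted p = 0.0308, edgeR). In this comparison 1.54% of 15727 genes were called, 0.267% in the higher direction, 15.4% had an unadjusted p under 0.05 and 46.1% had libraries that did not overlap.

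Helios kept a log2 difference of 1.80 to 3.15 without any 1 of these libraries, but the call was lost without 3 of the 4. Its adjusted p in edgeR was 0.123 without TCR-NK1.1+ replicate 1, 0.17 without TCRb+CD8a+NK1.1+ replicate 1, 0.163 without TCRb+CD8a+NK1.1+ replicate 2, and 0.0964 in a joint fit of 22 libraries. Over 9 alternatives it ran from 1.19e-08 to 0.17 and was under 0.05 in 5. The TCR-NK1.1+ libraries also held more of the other cells' markers, with myeloid sums of 1947 and 1719 CPM against 79.8 and 85.8 and epithelial sums of 6713 and 4174 CPM against 610 and 735, and the part of these in the difference was not tested. Krt18 stood at 722 and 541 CPM in TCR-NK1.1+ and at 4.09 and 5.23 CPM in TCRb+CD8a+NK1.1+. In the integrin gene Itgae, TCR-NK1.1+ (517 and 757 CPM) lay between ILC1l (1279 and 1654) and cNK (2.24 and 9.17). Eomes, a lineage factor, also lay between, at 31.5 and 48.2 CPM against 28.9 and 26.2 in ILC1l and 145 and 187 in cNK. As the TCR-NK1.1+ label does not exclude cNK cells, this comparison may partly cross the division the family was picked by.

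Eos and Aiolos lay the same way in that comparison without passing the test in edgeR. Eos was 29.6 and 34.8 CPM against 6.12 and 11.8 CPM (log2 1.85 ± 0.46, SE, adjusted p = 0.0893). Aiolos was 399 and 426 CPM against 210 and 231 CPM (log2 0.90 ± 0.24, SE, adjusted p = 0.115). Libraries of both genes did not overlap, and DESeq2 called both among the 1145 genes it called here. Ikaros overlapped between the populations, with an interval of the log2 difference from -0.59 to 1.38.

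Between PD1+ and PD1-NK1.1- CD8 T cells, no member passed edgeR's test, while 3 had an unadjusted p under 0.05. DESeq2 called 2 members, among 402 genes called. All 4 members had libraries that did not overlap, where 35.3% of tested genes did so, 6.77% had an unadjusted p under 0.05 and 0.451% were called. Eos was 48.1 and 45.4 CPM in PD1+ cells and 11.2 and 16.7 CPM in PD1-NK1.1- cells (log2 1.74 ± 0.45, SE, adjusted p = 0.217 in edgeR). Aiolos was 492 and 555 CPM against 206 and 279 CPM (log2 1.11 ± 0.24, SE, adjusted p = 0.113 in edgeR). Helios had 134 and 95.0 CPM against 43.8 and 48.3 CPM (log2 1.31 ± 0.42, SE, adjusted p = 0.393 in edgeR). Ikaros pointed the other way, with 217 and 341 CPM in PD1+ and 412 and 419 CPM in PD1-NK1.1- cells (log2 -0.58 ± 0.44, SE).

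TCRab+ILTC1 is labelled with a T cell receptor and ILC1l, also innate-like, is not, though ILC1l libraries held Cd3e and Cd3g. Helios was 265 and 441 CPM in TCRab+ILTC1 and 52.2 and 77.6 CPM in ILC1l, a 5.43-fold ratio (log2 2.44 ± 0.64, SE). Its adjusted p was 0.596 in edgeR, with 0.00339 before adjustment. No gene of 16828 was called by edgeR here (percent called 0), 1072 (6.37%) had an unadjusted p under 0.05, and DESeq2 called 242 genes, with Helios the 1 member among them. Over 9 alternatives the adjusted p of Helios ran from 2.64e-07 to 1. Of the members, 3 had libraries that did not overlap, against 36% of genes. In simulated counts for this comparison, edgeR recovered 24% of the altered genes at a log2 of 2 and 60% at 3. Those counts gave all populations a shared mean for unaltered genes, unlike the data. They had 78 calls where the real counts had none, so these shares do not say how often Helios would be called.

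The remaining 3 comparisons called no member in edgeR or DESeq2. For TCRb+CD8a+NK1.1+ against TCRb+CD8a-NK1.1+ (0.337% of genes called), Helios differed by a log2 of -0.13 with an interval of -1.05 to 0.78. Aiolos had libraries apart, 399 and 426 CPM with CD8a against 246 and 250 CPM without (log2 0.71 ± 0.24, SE, adjusted p = 0.356 in edgeR), and was the 1 member with an unadjusted p under 0.05. The TCRb+CD8a-NK1.1+ libraries held epithelial sums of 4675 and 1063 CPM against 610 and 735, and myeloid sums of 1117 and 280 CPM against 79.8 and 85.8, and the part of these in the difference was not tested. Libraries of 2 members were apart there, against 31.7% of genes, and 9.34% of genes had an unadjusted p under 0.05. For TCRgd+ILTC1 against TCRab+ILTC1 no gene was called by edgeR (percent called 0), 570 (3.39%) had an unadjusted p under 0.05 and DESeq2 called 76. No member had an unadjusted p under 0.05, and 1, Ikaros, had libraries that did not overlap, against 26.9% of genes. The interval for Helios was -1.85 to 0.84 and for Eos -1.07 to 1.07.

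For TCRgd+NK1.1- against TCRb+CD8a+NK1.1-, 0.0773% of genes were called, 10.3% had an unadjusted p under 0.05, and no member had an unadjusted p under 0.05. Ikaros and Aiolos libraries were lower in the gamma-delta cells without overlap, by a log2 of -0.59 for each, where 36.3% of genes did not overlap. Helios changed sign with a single library, from -0.72 to 0.59 without TCRb+CD8a+NK1.1- replicate 2. The TCRgd+NK1.1- libraries carried the myeloid sums of 16506 and 42202 CPM given above, all 20 myeloid genes had counts in both, and the part of myeloid RNA in these levels was not tested.

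**Figure D3:**
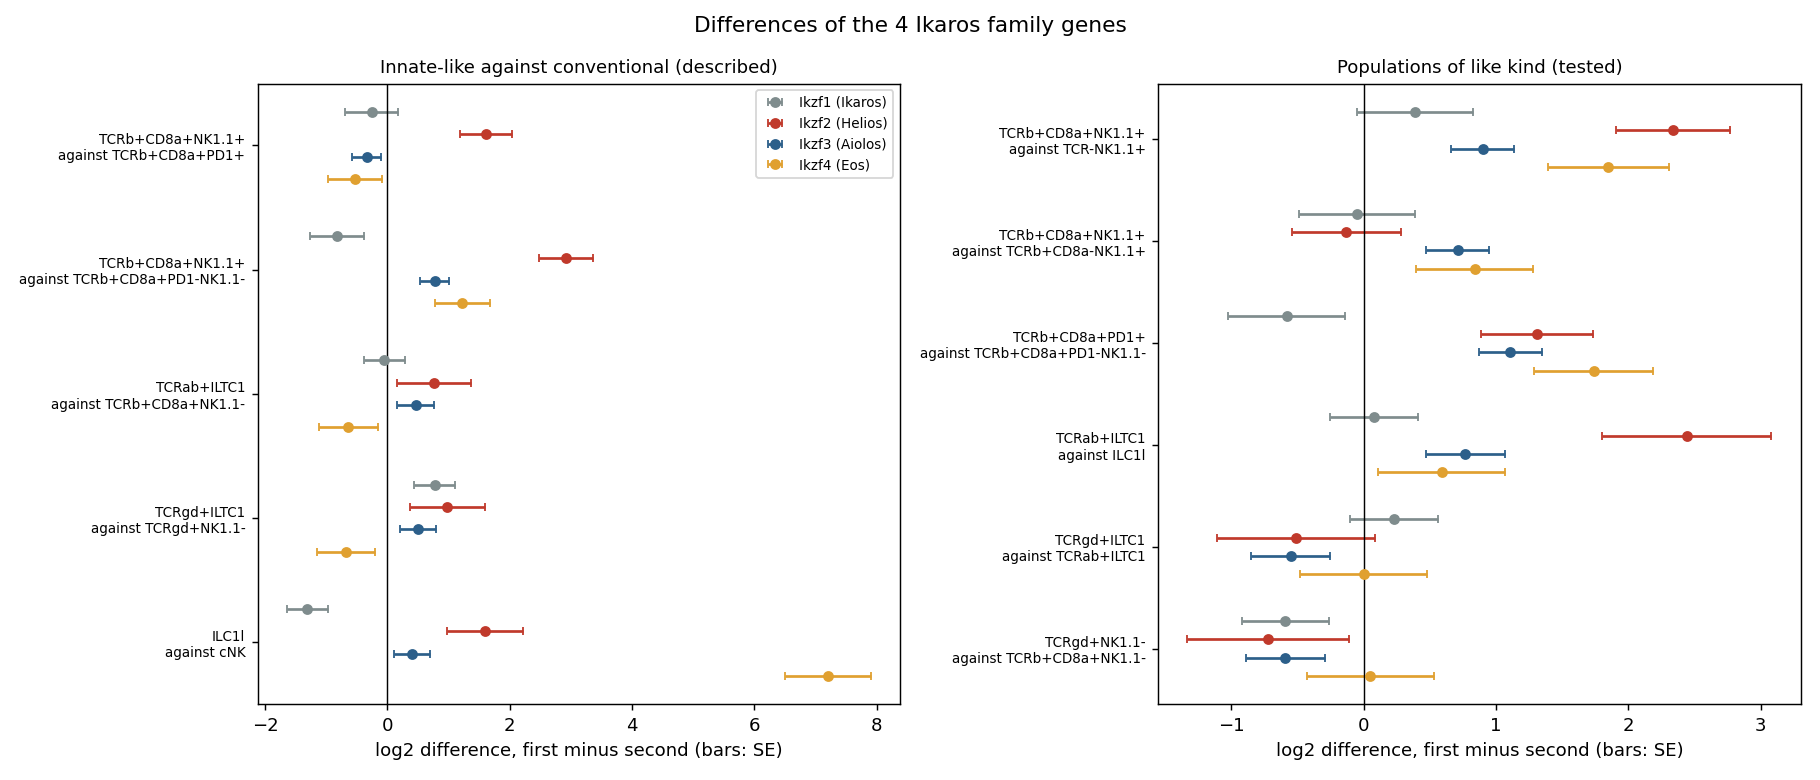
Log2 difference of each member, first minus second population, with bars for the SE of the fit. The left panel holds the 5 comparisons across the division, which are described only, and the right panel the 6 tested ones. Helios lies to the right of 0 in all 5 described comparisons, from 0.76 to 2.92, while Eos lies on both sides, from -0.68 to 7.21.

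Across the division the members were chosen by, Helios had a higher mean in the innate-like population in 5 of 5 comparisons and libraries that did not overlap in 4. Of all genes, 40.6% to 53.2% had libraries that did not overlap in a comparison. The log2 difference was 2.92 ± 0.44 (SE) for TCRb+CD8a+NK1.1+ against TCRb+CD8a+PD1-NK1.1-, 1.61 ± 0.42 against TCRb+CD8a+PD1+, 1.60 ± 0.62 for ILC1l against cNK and 0.98 ± 0.61 for TCRgd+ILTC1 against TCRgd+NK1.1-. For TCRab+ILTC1 against TCRb+CD8a+NK1.1- it was 0.76 ± 0.61, with overlapping libraries. That value was 2.08 without replicate 2 of TCRb+CD8a+NK1.1- and 0.08 without replicate 1. The count depends on which pairs were formed: the innate-like TCR-NK1.1+ cells, in none of these pairs, and ILC1l had Helios means of 68.7 and 64.9 CPM, below conventional TCRb+CD8a+PD1+ (115), TCRgd+NK1.1- (124) and TCRb+CD8a+NK1.1- (203 CPM). Comparisons of TCRb+CD8a+NK1.1+ share that population, so their values are not independent of each other.

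Eos did not follow Helios across the division. It was higher in the innate-like population in 2 comparisons and lower in 3. The higher ones were ILC1l against cNK, where the fitted log2 difference of 7.21 ± 0.70 (SE) depends on the small count added to cNK, and TCRb+CD8a+NK1.1+ against TCRb+CD8a+PD1-NK1.1-, at 1.22 ± 0.45. Lower values were found against TCRb+CD8a+PD1+ (-0.53 ± 0.44), TCRb+CD8a+NK1.1- (-0.64 ± 0.48) and, for TCRgd+ILTC1, TCRgd+NK1.1- (-0.68 ± 0.48). Of these 3, libraries were apart against TCRb+CD8a+PD1+ and overlapped in the other two, and in each the conventional cells were those with much Pdcd1. Ikaros had a lower mean in the innate-like cells in 4 of 5, from -0.05 ± 0.33 for TCRab+ILTC1 to -1.31 ± 0.33 for ILC1l, with libraries apart in 2 of these. Against TCRb+CD8a+PD1+, where libraries overlapped, its -0.26 became 0.03 without TCRb+CD8a+NK1.1+ replicate 1 and 0.10 without TCRb+CD8a+PD1+ replicate 2. The -0.05 became 0.0 without TCRb+CD8a+NK1.1- replicate 1. Ikaros was higher by 0.77 ± 0.33 in TCRgd+ILTC1 against TCRgd+NK1.1-. Aiolos ranged from -0.34 ± 0.24 to 0.77 ± 0.24. Between 40.6% and 53.2% of all genes had libraries that did not overlap in these 5 comparisons (44.9%, 40.6%, 42.9%, 42.1% and 53.2% in the order of the plot of differences), and nothing is read from the members' counts.

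**Figure D4:**
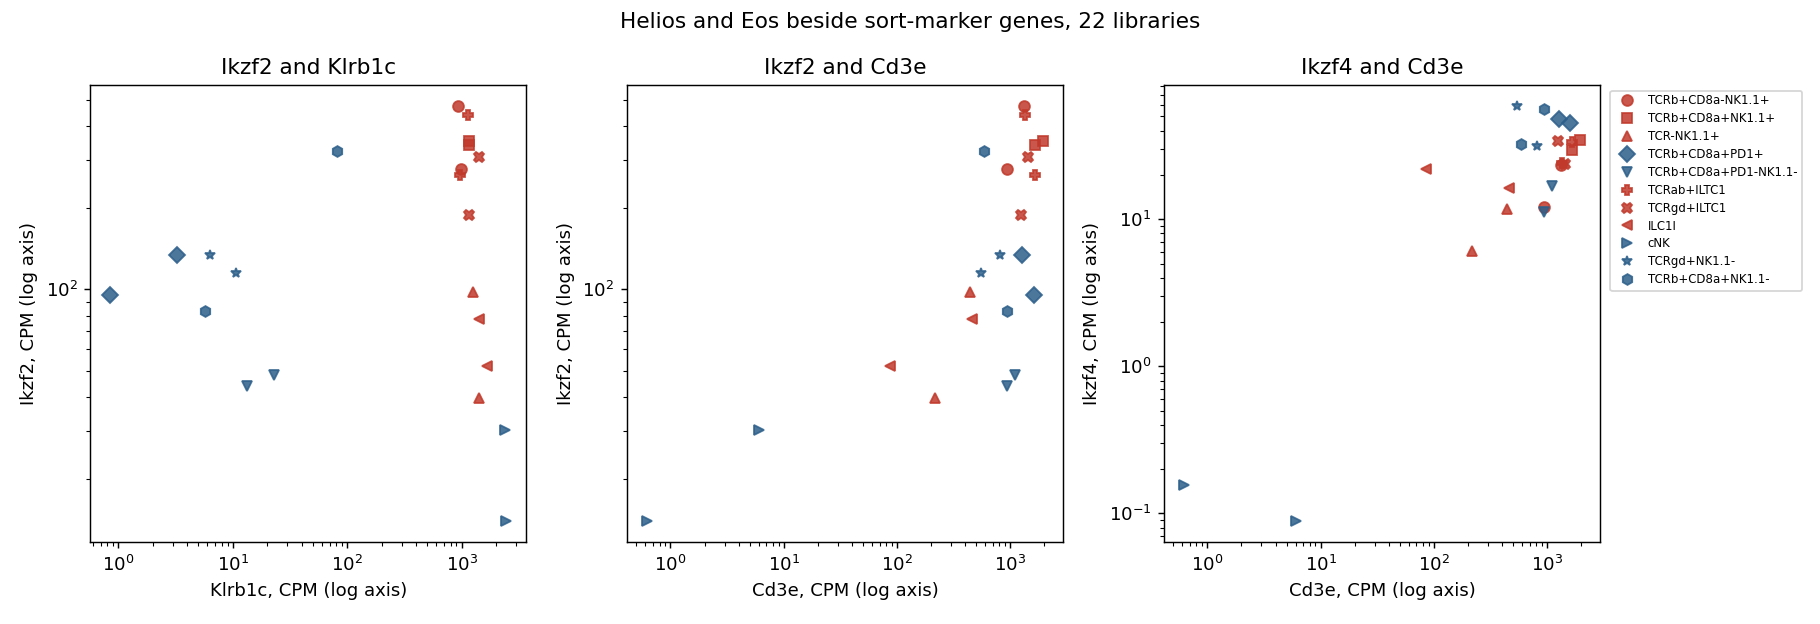
Helios against Klrb1c and Cd3e, and Eos against Cd3e, in CPM on log axes, with 1 point per library. TCRb+CD8a+NK1.1- replicate 2 stands between the NK1.1- and NK1.1+ libraries at 82.1 CPM of Klrb1c and 323 CPM of Helios, and both cNK libraries lie at the lowest Cd3e, Helios and Eos levels.

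Regulatory T cells are known to carry Helios and Eos, so the levels of their genes are given beside these. The sum of 11 such genes was 182 to 625 CPM. It was highest in TCRgd+NK1.1- (477 and 625 CPM) and TCRb+CD8a+PD1+ (597 and 487 CPM), which are also among the 3 populations highest in Eos. The remaining population of those 3, TCRb+CD8a+NK1.1-, held 325 and 290 CPM. That was below TCR-NK1.1+ (419 and 340 CPM) and ILC1l (373 and 362 CPM), which were lower in Eos. The TCRgd+NK1.1- libraries also held myeloid sums of 16506 and 42202 CPM. In PD1+ against PD1-NK1.1- CD8 T cells the median log2 of the list was 1.75, beside 0 for all genes, with 8 of 11 positive. There edgeR called none of them, 5 had an unadjusted p under 0.05 and DESeq2 called 3. Foxp3, the defining factor of these cells, was 2.60 to 11.8 CPM in all 22 libraries, with 8.90 and 2.60 CPM in TCRb+CD8a-NK1.1+ and 5.49 and 11.6 CPM in cNK. In PD1+ cells its mean was 4.52 CPM, against 10.2 CPM in PD1-NK1.1- cells. Cd4 was 0.135 and 0.144 CPM in TCRb+CD8a-NK1.1+ and at most 24.3 CPM in any library. Of the 11 genes, Nrp1, a receptor also found on other T cells, fell in TCRb+CD8a+NK1.1+ against each of the other populations of its set it was compared with: it was 2.35 CPM there, against 34.5 in TCR-NK1.1+ (adjusted p = 0.00924 in edgeR) and 27.3 in TCRb+CD8a-NK1.1+ (adjusted p = 0.0233 in edgeR). Myeloid sums were 79.8 and 85.8 CPM in TCRb+CD8a+NK1.1+, 1947 and 1719 in TCR-NK1.1+ and 1117 and 280 in TCRb+CD8a-NK1.1+. No other gene of the regulatory T cell list was called in the tested comparisons. Over all 11 comparisons edgeR called 6 of 121 tests of the list, 30 had an unadjusted p under 0.05 and DESeq2 called 18. Of all genes, edgeR called 0% to 2.11% in a comparison, and 3.39% to 17.4% had an unadjusted p under 0.05. The part of regulatory T cells in the Helios and Eos levels was not tested, nor was the part of myeloid cells in the levels of the list.

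Members moved together in part. As a description across libraries, which share scaling and depth, Pearson's r of log2(CPM + 1) between Aiolos and Eos was 0.93 over the first 10 libraries and 0.42 over the next 12. For Helios and Eos r was 0.49 and 0.73, for Helios and Aiolos 0.33 and 0.71, and for Ikaros and Eos 0.34 and -0.78. Among the next 12 libraries, cNK was lowest in both Helios and Eos and highest in Ikaros. Spearman's correlation was 0.54 and 0.48 for Helios and Eos and 0.42 and 0.75 for Helios and Aiolos. It was 0.15 and -0.34 for Ikaros and Eos and 0.96 and 0.27 for Aiolos and Eos. Genes of the most similar pattern were ranked by the lower of the 2 Pearson correlations, over the first 10 and the next 12 libraries, among 8959 genes. Jak1, a cytokine receptor kinase, was nearest to Ikaros (lower r 0.97), before Ripor2 (0.89), Dock2 (0.88), Cyfip2 (0.88) and Ptprc (0.87), the gene for CD45. The 5 genes nearest to Helios included Apol7e (0.82), Cyth3 (0.80), Zfp652 (0.78) and Cdkn2aipnl (0.77).

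Aiolos was closest to Idh3a, a subunit of the citric acid cycle enzyme isocitrate dehydrogenase (0.81), then Crbn (0.78), which encodes cereblon, Taf9b (0.78), Lcp2 (0.78) and Bcl2 (0.77). For Eos these were Adam19 (0.87), a membrane protease, Cxcr6 (0.87), a chemokine receptor of tissue lymphocytes, Cd3e (0.84), Cd3g (0.80) and Cish (0.79), a cytokine signalling inhibitor. With Spearman's correlation 1 of the 5 genes was shared for Ikaros, Helios and Eos and 2 for Aiolos, so most names depend on the measure.

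Genes that work with the family were counted by list, and differences between lists were not tested. Of 18 corepressor and chromatin partners, among them the NuRD genes Chd4, Mta2 and Hdac1, none was called by edgeR in any tested comparison. Over all 11 comparisons, 198 tests of these partners gave 1 call, 25 had an unadjusted p under 0.05 and DESeq2 called 12. The call was Ctbp2, a corepressor, which stood at 0.0488 CPM in TCRab+ILTC1 and 17.5 CPM in TCRb+CD8a+NK1.1- (adjusted p = 0.0435 in edgeR), where 0.523% of genes were called and the Krt18 levels were 5.91 and 4.69 against 319 and 715 CPM. The summed partner level was 1521 to 2541 CPM over the 22 libraries. The 5 genes of the cereblon ligase gave 0 calls in 55 tests in edgeR, 8 with an unadjusted p under 0.05 and 2 in DESeq2, and their sum was 613 to 1006 CPM.

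Over all 11 comparisons edgeR made 12 calls in 193 tests of genes reported as Ikaros family targets and 24 in 220 tests of partner lineage factors. Unadjusted p was under 0.05 in 66 and 93 of these, and DESeq2 called 37 and 66. Of all genes, edgeR called 0% to 2.11% in a comparison, and 3.39% to 17.4% had an unadjusted p under 0.05. The targets include the sort marker Cd8a, and Tbx21 and Prdm1 are in both lists. For TCRb+CD8a+NK1.1+ against TCR-NK1.1+, 2 of 17 measured targets rose and 1 fell, with a median log2 of 0.02 beside -0.05 for all genes. Cd8a, itself a sort marker, rose by 3.31 ± 0.42 and Dtx1, a Notch pathway gene, by 3.45 ± 0.53, and Il7r, the interleukin-7 receptor, fell by 3.36 ± 0.52 (log2, SE). Of 20 lineage factors 2 rose and 2 fell. Bcl11b, a T cell identity factor, went from 6.75 to 41.5 CPM and Tox, a factor of innate and chronically stimulated T cells, from 151 to 348 CPM, while Eomes went from 39.9 to 8.66 CPM and Gata3 from 148 to 61.7 CPM. Among 15 T cell receptor signal genes Cd5 and Cd6, surface receptors that dampen this signal, rose by 3.00 ± 0.39 and 2.96 ± 0.33. The other 13 were not called. The median log2 of the 15 was -0.06, beside -0.05 for all genes, with 7 of 15 positive.

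In PD1+ against PD1-NK1.1- CD8 T cells, none of 17 targets was called in edgeR, 8 had an unadjusted p under 0.05 and DESeq2 called 4. Of 20 lineage factors, Tox rose by a log2 of 2.53 ± 0.26 (SE) and Tcf7, Lef1 and Satb1, factors of naive and memory T cells, fell by 2.30 ± 0.34, 4.09 ± 0.52 and 5.35 ± 0.54. For TCRb+CD8a+NK1.1+ against TCRb+CD8a-NK1.1+, Cd8a rose and Il7r fell by 4.70 ± 0.55 among 17 targets, and no lineage factor was called in edgeR (10 unadjusted, 6 in DESeq2). In the comparisons of TCRab+ILTC1 with ILC1l, TCRgd+ILTC1 with TCRab+ILTC1 and TCRgd+NK1.1- with TCRb+CD8a+NK1.1-, edgeR called none of the targets, lineage factors or receptor signal genes. There the targets gave 6, 1 and 5 unadjusted p under 0.05 and 2, 0 and 0 calls in DESeq2, the lineage factors 4, 2 and 7 and 2, 0 and 3, and the signal genes 4, 2 and 3 and 3, 0 and 1.

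Across the division, the genes called by edgeR were 332 (2.11%) for TCRb+CD8a+NK1.1+ against TCRb+CD8a+PD1+, 280 (1.78%) against TCRb+CD8a+PD1-NK1.1-, 88 (0.523%) for TCRab+ILTC1 against TCRb+CD8a+NK1.1-, 268 (1.59%) for TCRgd+ILTC1 against TCRgd+NK1.1- and 171 (1.02%) for ILC1l against cNK. Tnfrsf9, the costimulatory receptor 4-1BB, rose in the innate-like population in each of them, by a log2 of 1.46 ± 0.21 to 3.05 ± 0.36 (SE). Its list, the T cell receptor signal genes, had a median log2 of -0.59, 0.03, -0.85, -0.16 and -0.61 in these comparisons. The medians of all genes were 0, 0, -0.07, -0.13 and 0.03. Over all 11 comparisons edgeR called 18 of 171 tests of this list, 59 had an unadjusted p under 0.05 and DESeq2 called 40. Nr4a1, an early gene of receptor signalling, fell in 3 of the comparisons across the division, by 1.61 ± 0.27 in TCRab+ILTC1, 1.68 ± 0.28 in TCRgd+ILTC1 and 2.93 ± 0.29 in ILC1l. Il7r differed by -5.83 ± 0.57 in TCRb+CD8a+NK1.1+ against the PD1+ cells and by -7.67 ± 0.62 against the PD1-NK1.1- cells. Lef1, which was 88.6 CPM in cNK, fell by 2.59 ± 0.48 in ILC1l. Ifng, a cytokine gene reported as a family target, also fell there, by 2.36 ± 0.37. Of 18 targets tested in ILC1l against cNK, 1 was called higher and 1 lower. In TCRgd+ILTC1 against TCRgd+NK1.1- the median of all genes was -0.13, and -0.27 with DESeq2's size factors, and the direction of each member was the same under both.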

How the data were processed

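Lymphocytes were sorted from digested pooled tumours and cDNA was amplified with a SMARTer kit, per the labels' protocols. The authors deposited whole-number counts per Ensembl gene for 22 libraries. BWA 0.7.5a, Picard and HTSeq, and the builds mm9 and NCBIM37, are named in the submitters' processing notes. The sources used here do not give their settings or strand use. Symbols, exon lengths and transcript sequences came from GENCODE M21 (GRCm38), and 32897 genes matched. Builds differ, so no coordinates are given. Folr4 and Trdc were not matched. Titles ending ILC1I and ILC1l were read as 1 population.

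Counts were tested in R 4.3.3 with edgeR 4.0.16 (TMM, filterByExpr, quasi-likelihood test, Benjamini-Hochberg), in separate fits of the first 10 and next 12 columns (15727 and 16828 genes). Nothing in the labels calls these sets a batch, and no test crosses them. DESeq2 1.42.0, its size factors, no filter, a replicate block, a joint fit and leaving out each library were alternatives. Python 3.11.15, pandas 2.3.3, scipy 1.17.1 and matplotlib 3.10.9 made the tables and figures. CPM are TMM-scaled, and levels in the 2 sets were scaled together. Correlations used log2(CPM + 1) and genes of at least 10 CPM in a population of each set, without predicted genes and receptor segments. Named genes are the members, Ikzf5, the 5 genes of most similar pattern to each, and up to 3 called genes each way per list and comparison. Not every gene picked is printed. Levels of sort-marker genes are given as checks of the labels. The members and lists were chosen with earlier results of these data known. Tested on simulated data for TCRb+CD8a+NK1.1+ against TCR-NK1.1+ (15097 genes), edgeR found 0, 42, 88 and 100% of altered genes at log2 sizes 1, 2, 3 and 4, and 5 of its 120 calls were false. For TCRab+ILTC1 against ILC1l (15936 genes) it found 2, 24, 60 and 70%, and 0 of 78 calls were false. Simulated populations shared a mean for unaltered genes, unlike the data, so these shares may not hold for the real counts.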

Additional observations from a re-analysis of the deposited data

Results flagged for a closer look

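Ikaros differed in opposite directions in 2 comparisons of innate-like with conventional cells. Both TCRgd+ILTC1 libraries (355 and 346 CPM) lay above both TCRgd+NK1.1- libraries (125 and 275 CPM), while both ILC1l libraries (296 and 267 CPM) lay below both cNK libraries (728 and 703 CPM). The log2 differences of 0.77 and -1.31 are 2.08 apart, and this difference was not tested. TCRgd+NK1.1- had myeloid sums of 16506 and 42202 CPM, and without its replicate 1, the library with less Ikaros, the first difference was 0.29. It was 1.50 without replicate 2 of TCRgd+NK1.1-. The part of either in the result was not tested.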

How the results depend on the processing

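The 1 member called in TCRb+CD8a+NK1.1+ against TCR-NK1.1+ became 2 with no filter, 2 with the replicate block, 3 in DESeq2, 0 in the joint fit and 0 to 1 without single libraries. The 0 members called in TCRb+CD8a+PD1+ against TCRb+CD8a+PD1-NK1.1- became 2 with no filter, 1 with the block and 2 in DESeq2, and the 0 in TCRab+ILTC1 against ILC1l became 1 with no filter and 1 in DESeq2. The block added Eos in the first (adjusted p = 0.0294 in edgeR) and Aiolos in the second (adjusted p = 0.0478 in edgeR, 0.113 without the block).

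Counts of all genes called moved more. In the 5 comparisons across the division, in the order of the report, 332, 280, 88, 268 and 171 became 838, 747, 1244, 1786 and 787 with no filter, 871, 790, 1339, 1876 and 917 in DESeq2, and 221, 168, 282, 626 and 327 in the joint fit. Without single libraries they ran from 116 to 170, 46 to 105, 11 to 840, 7 to 804 and 34 to 79. In the tested comparisons, 242, 53, 71, 0, 0 and 13 became 1452, 906, 397, 344, 154 and 621 with no filter, 1145, 605, 402, 242, 76 and 711 in DESeq2, and 72, 17, 45, 9, 0 and 151 in the joint fit. Without single libraries these ran from 3 to 137, 2 to 667, 14 to 30, 0 to 324, 0 to 297 and 2 to 449, with the 324 and 297 both reached without TCRab+ILTC1 replicate 1, and size factors took the 13 to 6. The causes were not tested.

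The labels number the replicates 1 and 2 and give no shared animal or day, so the samples share only a number. Deviations of same-numbered libraries correlated at 0.24 to 0.34 in the first 10 columns and 0.03 to 0.13 in the next 12. The block moved 280 calls to 421, 332 to 498, 242 to 387 and 71 to 125.

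Of 120 log2 differences of members in the tested comparisons under other settings, 0 changed sign, 11 passed the threshold where the test first made did not and 1 fell short of it. Of 96 without 1 library, 10 changed sign, with 0 of these past the threshold, and 3 lost a call. In the described comparisons 0 of 100 changed sign under other settings and 2 of 80 without 1 library, both of Ikaros against TCRb+CD8a+PD1+. Without single libraries, Ikaros ran from -0.09 (without TCR-NK1.1+ replicate 1) to 1.07 in TCRb+CD8a+NK1.1+ against TCR-NK1.1+. Against TCRb+CD8a-NK1.1+, Ikaros ran from -0.45 to 0.52 and Helios from -0.45 to 0.29, both highest without TCRb+CD8a-NK1.1+ replicate 2, and Ikaros was 0.23 without TCRb+CD8a+NK1.1+ replicate 1. Ikaros in TCRab+ILTC1 against ILC1l ran from 0.0 (without ILC1l replicate 2) to 0.16. Eos in TCRgd+ILTC1 against TCRab+ILTC1 ran from -0.26 (without TCRgd+ILTC1 replicate 1) to 0.27, with -0.21 without TCRab+ILTC1 replicate 2. For TCRgd+NK1.1- against TCRb+CD8a+NK1.1-, Eos ran from -0.53 (without TCRgd+NK1.1- replicate 2) to 0.46 and was -0.29 without TCRb+CD8a+NK1.1- replicate 2, and Helios ran from -1.41 to 0.59, the latter also without TCRb+CD8a+NK1.1- replicate 2. With 2 libraries a population, the number of replicates limits which differences can be called.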
